A study of Mus musculus with 6 samples.

Results

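The transcripts of 10 multidrug transporters of the ATP-binding cassette (ABC) family were followed in RAW264.7 cells, a mouse macrophage-like line of WT genotype in the labels. They were chosen by name, as the rows of the count table whose mouse symbol was Abcb1a, Abcb1b, Abcc1, Abcc3, Abcc4, Abcc5, Abcc10, Abcg2, Abcb6 or Abcb10, and made up 10 of the 49315 genes in the table. The study looked for compounds that help a host against bacterial infection, and the comparison here asks which transporter transcripts differed between cells given 4 μg/mL of SKI-II, a small molecule known as an inhibitor of sphingosine kinases, for 24 h and cells given the same volume of the solvent DMSO. There were 3 libraries of poly(A)-selected RNA in each group, with 12495957 to 20050677 counts in a library. The line is a single transformed cell line, and the labels do not say whether the libraries of a group came from separate cultures, so the tests measure only the spread between these samples.

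ABC transporters use ATP to move substrates across membranes, and the multidrug members export drugs, toxins and conjugated metabolites. The ABCB1 proteins (P-glycoproteins) and ABCG2 pump many unmodified hydrophobic compounds, whereas ABCC proteins mostly carry organic anions, among them conjugates with glutathione, glucuronate or sulfate. Abcb6 and Abcb10 code for intracellular members linked to porphyrins and heme, and in macrophages ABCC1 and ABCC4 are also known as carriers of lipid mediators.

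In the SKI-II libraries, 4 of the 8 transporters with enough counts to test were higher than in DMSO, and all 4 belong to subfamily C: Abcc3 (2.5-fold), Abcc10 (2.21-fold), Abcc4 (1.92-fold) and Abcc1 (1.70-fold). The 2 that were lower belong to subfamily B, with Abcb1b at 0.628 and Abcb10 at 0.566 of the DMSO level. Abcc5 and Abcb6 did not pass the test, and Abcb1a and Abcg2 had 9 counts or fewer in every library. Genes were tested in edgeR by quasi-likelihood, and a gene was called when its p, adjusted by Benjamini-Hochberg over 12274 genes, was below 0.05. Of all genes tested, 18.4% were called higher and 19.7% lower, against 4 of 8 and 2 of 8 transporters. Without SKI-II 1, 2 were called higher (Abcc3 and Abcc1), and without DMSO 1, DMSO 2, SKI-II 2 or SKI-II 3, 1 was called lower (Abcb1b). The median log2 fold change was 0.66 over the 8 transporters and 0.00 over all genes tested. In bulk RNA, fewer cells of a type and less RNA per cell cannot be told apart.

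Upstream sequences are shown for Abcc4, which rose, and for Abcb1b and Abcb10, which fell, so that the letters searched can be seen. RefSeq promoters of GRCm38.p6 were found for 8 of the 10 members, in 12 windows of 300 bases (250 before the start of a transcript and 50 after it). Abcc1 and Abcc3 were not matched. Any member window on a chromosome that holds none of the 10 genes was left out, which was not done for the windows of all genes. Each window was searched on both strands for the antioxidant response element core (TGACNNNGC, the letters bound by Nrf2 with small Maf proteins), the xenobiotic response element core (GCGTG, bound by the Ah receptor), the CCAAT box (CCAAT) and the GC box (GGGCGG). The following are the 250 bases upstream of the start on the gene's strand, 5′ to 3′, at chr14:118706220-118706469 (minus strand, Abcc4), chr5:8797897-8798146 (plus strand, Abcb1b) and chr8:123983123-123983372 (minus strand, Abcb10). Capitals mark an antioxidant response element core or a CCAAT box on either strand.
Abcc4: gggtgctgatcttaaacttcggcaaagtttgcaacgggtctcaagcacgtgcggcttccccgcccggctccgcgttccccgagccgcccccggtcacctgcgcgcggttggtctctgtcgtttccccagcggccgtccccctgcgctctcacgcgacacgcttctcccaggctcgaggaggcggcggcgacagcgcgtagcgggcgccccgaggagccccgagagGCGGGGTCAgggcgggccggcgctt
Abcb1b: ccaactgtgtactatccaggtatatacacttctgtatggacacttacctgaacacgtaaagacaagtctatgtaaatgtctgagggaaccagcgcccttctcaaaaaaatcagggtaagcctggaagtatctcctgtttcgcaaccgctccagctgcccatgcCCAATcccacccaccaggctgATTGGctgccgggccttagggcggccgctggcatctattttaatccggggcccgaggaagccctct
Abcb10: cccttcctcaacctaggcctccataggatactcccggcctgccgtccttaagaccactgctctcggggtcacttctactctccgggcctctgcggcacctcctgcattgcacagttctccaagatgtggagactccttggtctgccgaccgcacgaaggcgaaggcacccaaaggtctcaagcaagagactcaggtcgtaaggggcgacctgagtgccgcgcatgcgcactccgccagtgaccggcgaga

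The Abcc4 window shown held the antioxidant response element core on the strand opposite the gene, with its match beginning 25 bases before the start, and a GC box began directly after it. It also held 2 xenobiotic response element cores and 2 further GC boxes. The Abcb1b window held a pair of CCAAT boxes, 1 on each strand, and a GC box, but neither of the response element cores. The Abcb10 window held none of the 4 motifs. In Abcc10, the core read TGACCTGGC and began 203 bases before the RefSeq start. The core was in 5 of the 12 windows, which belonged to Abcb1a, Abcc4 and Abcc10, against 12.4% of all 32851 windows. By GENCODE gene positions, the Abcb1a window (upstream bases chr5:8566841-8567090) lies far before the gene, which starts at 8660077. The other Abcc4 window (chr14:118676932-118677181) and both Abcc10 windows (chr17:46325767-46326016 and chr17:46328024-46328273) lie inside the genes. Only for the Abcc4 window shown was the RefSeq start also the GENCODE start of the gene. The xenobiotic response element core was in 2 of the 12 windows (32.4% of all), the CCAAT box in 3 (37.4%) and the GC box in 7 (35.7%). Windows of 1 gene share its locus and are not independent, and a match is a description of the letters only.

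Among the subfamily C genes, Abcc3 (chr11:94343295-94392997, minus strand) codes for an exporter of glucuronide conjugates and bile salts and had the largest change of the 8. Its raw counts were 704, 431 and 588 in DMSO libraries 1 to 3 and 1445, 1471 and 1848 in SKI-II libraries 1 to 3. Normalized counts, scaled to a common library size, were 604 ± 72.0 in DMSO and 1509 ± 107 in SKI-II (SD, n = 3 each). All SKI-II libraries lay above all DMSO libraries, and the lowest of them was 2.33 times the DMSO mean. The log2 fold change was 1.32 (SE 0.13, edgeR adjusted p = 7.41e-05), and 5.56% of all tested genes had a larger one.

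Abcc10 (chr17:46303221-46328352, minus strand), whose protein carries taxanes and other lipophilic drugs, gave 96, 67 and 44 counts with DMSO and 193, 155 and 154 with SKI-II. Normalized counts were 73.8 ± 26.6 and 163 ± 47.1 (SD, n = 3 each), with DMSO 3 the lowest and SKI-II 1 the highest library and no overlap between the groups. It rose by a log2 fold change of 1.14 (SE 0.32, edgeR adjusted p = 0.0189). Without SKI-II 1 it was not called (log2 fold change 0.88, edgeR adjusted p = 0.0912).

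Abcc4 (chr14:118482692-118706219, minus strand) codes for an exporter of cyclic nucleotides, prostaglandins and leukotrienes. Its DMSO libraries held 1235, 824 and 1044 counts and its SKI-II libraries 2419, 2414 and 1581, or 1091 ± 93.7 and 2099 ± 731 normalized counts (SD, n = 3 each). SKI-II 3 stood below the other SKI-II libraries, at 1288 normalized counts against 2707 and 2303, and was 1.18 times the DMSO mean, still above every DMSO library. The log2 fold change was 0.94 (SE 0.23, edgeR adjusted p = 0.0102), and it was 0.71 (edgeR adjusted p = 0.0502) without SKI-II 1.

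Abcc1 (chr16:14361558-14475737, plus strand), the exporter of glutathione conjugates and of leukotriene C4, was the most abundant transcript of the 10 by counts per length. Counts were 6606, 5925 and 9017 for DMSO and 10728, 12783 and 17911 for SKI-II, and normalized counts were 7610 ± 1261 and 12931 ± 1442 (SD, n = 3 each). Every SKI-II library exceeded every DMSO library, with the lowest at 1.58 times the DMSO mean. The fitted log2 fold change was 0.76 (SE 0.16, edgeR adjusted p = 0.00441).

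Abcc5 (chr16:20331303-20426394, minus strand), which codes for a carrier of cyclic nucleotides and glutamate conjugates, gave 2192, 2686 and 4123 counts with DMSO and 4299, 4252 and 6406 with SKI-II. Normalized counts were 3202 ± 991 and 4696 ± 589 (SD, n = 3 each). The groups overlapped, since DMSO 3 at 4083 lay above SKI-II 2 at 4057. The log2 fold change of 0.55 (SE 0.21) did not pass the test (edgeR adjusted p = 0.0673), and without DMSO 3 it was 0.76 and passed (edgeR adjusted p = 0.0158). Without DMSO 1 it was 0.31 (edgeR adjusted p = 0.141). It also passed in DESeq2 (adjusted p = 0.0424), with library size alone (edgeR adjusted p = 0.0447) and without the expression filter (edgeR adjusted p = 0.00250).

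**Figure D1:**
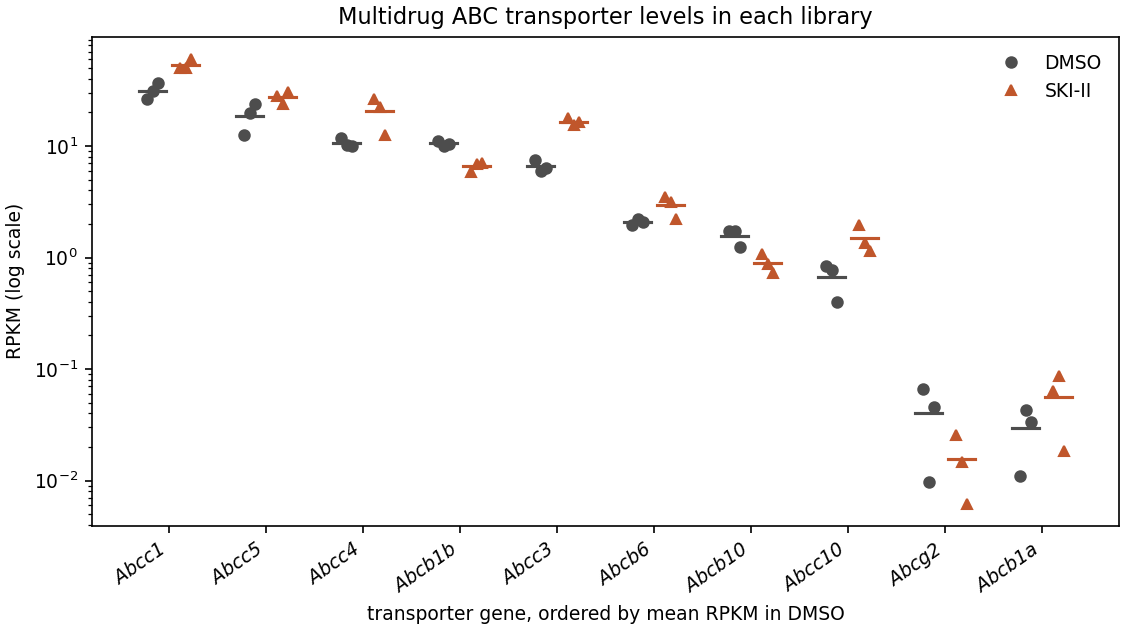
RPKM (log scale) of each of the 10 transporters in the 3 DMSO libraries (circles) and the 3 SKI-II libraries (triangles), with horizontal bars at the group means and genes ordered by their DMSO mean. Abcc1 was the highest in both groups, Abcc3 moved above Abcb1b with SKI-II, and Abcg2 and Abcb1a stayed below 0.1 RPKM in all 6 libraries.

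Among the subfamily B genes, Abcb1b codes for 1 of the 2 rodent P-glycoproteins, the drug pump known for its broad range of substrates. It lies on chr5:8798147-8866315 (plus strand) between Abcb1a (chr5:8660077-8748575) and Abcb4 (chr5:8893717-8959231), all on the same strand. The DMSO libraries held 1477, 1020 and 1353 Abcb1b counts and the SKI-II libraries 670, 933 and 1116. Normalized counts were 1354 ± 74.0 and 850 ± 87.2 (SD, n = 3 each), and every SKI-II library was below every DMSO library. The log2 fold change was -0.67 (SE 0.13, edgeR adjusted p = 0.00250). Its neighbour Abcb4, which codes for a flippase of phosphatidylcholine, was also lower, at 2003 ± 110 against 1178 ± 108 normalized counts (log2 fold change -0.77, SE 0.12, edgeR adjusted p = 9.71e-04). Of the stretches of 50 bases in Abcb1b exons, 11.1% also occur in Abcb1a and 0.822% in Abcb4, so reads from those stretches cannot be assigned by sequence.

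Abcb1a, the other P-glycoprotein gene, gave 1, 3 and 3 counts with DMSO and 5, 8 and 2 with SKI-II, too few for the main test. The 7 counts in DMSO and 15 in SKI-II gave a ratio of 1.91 with an exact 95% interval of 0.735 to 5.55, which covers counting error only. DESeq2, which kept the gene, gave an adjusted p of 0.618. Abcb1b held 99.7% to 99.9% of the counts of the pair with DMSO and 99.1% to 99.8% with SKI-II (exact two-sided permutation p = 0.3, the smallest possible being 0.1). Of the Abcb1a stretches of 50 bases, 16.3% also occur in Abcb1b, so its few counts are uncertain.

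Abcb10 (chr8:123952459-123983122, minus strand), a mitochondrial inner membrane member needed for heme synthesis in red cell precursors, gave 123, 95 and 87 counts with DMSO and 67, 63 and 61 with SKI-II. Normalized counts were 109 ± 19.4 and 61.6 ± 12.7 (SD, n = 3 each), with no overlap: SKI-II 1, the highest with the drug, lay below DMSO 3, the lowest without it, at 86.1. On the log2 scale the change was -0.82 (SE 0.26, edgeR adjusted p = 0.0319). The call was lost without DMSO 1 (edgeR adjusted p = 0.0726), DMSO 2 (0.113), SKI-II 2 (0.0929) or SKI-II 3 (0.0910), and over all 6 leave-outs the log2 fold change lay between -0.99 and -0.69. An antisense gene, Gm45890, covers 10.3% of the Abcb10 exon bases and held 27 counts over the 6 libraries.

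Abcb6 (chr1:75171717-75180392, minus strand), associated with porphyrin transport, gave 172, 150 and 181 counts with DMSO and 266, 279 and 231 with SKI-II. Normalized counts were 179 ± 11.2 and 251 ± 56.3 (SD, n = 3 each). SKI-II 3 at 188 lay inside the DMSO range, which reached 190, and the log2 fold change of 0.49 (SE 0.20) did not pass the test (edgeR adjusted p = 0.0858). Without SKI-II 3 it was 0.66 and passed (edgeR adjusted p = 0.0223). More than any other member, Abcb6 shares exon bases with another gene: 55.2% lie in the same-strand transcript Gm29253, which held 11 counts, and how reads on shared bases were assigned is not given in the sources used here. Its level per length is therefore uncertain.

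Abcg2 (chr6:58584523-58695676, plus strand), which codes for the breast cancer resistance protein, an exporter of urate and many drugs, gave 9, 1 and 6 counts with DMSO and 3, 2 and 1 with SKI-II. The 16 and 6 counts gave a ratio of 0.335 with an exact 95% interval of 0.107 to 0.901 for counting error only, while counts within DMSO alone ran from 1 to 9. Abcg2 was not kept for the main test, and DESeq2 gave an adjusted p of 0.428.

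**Figure D2:**
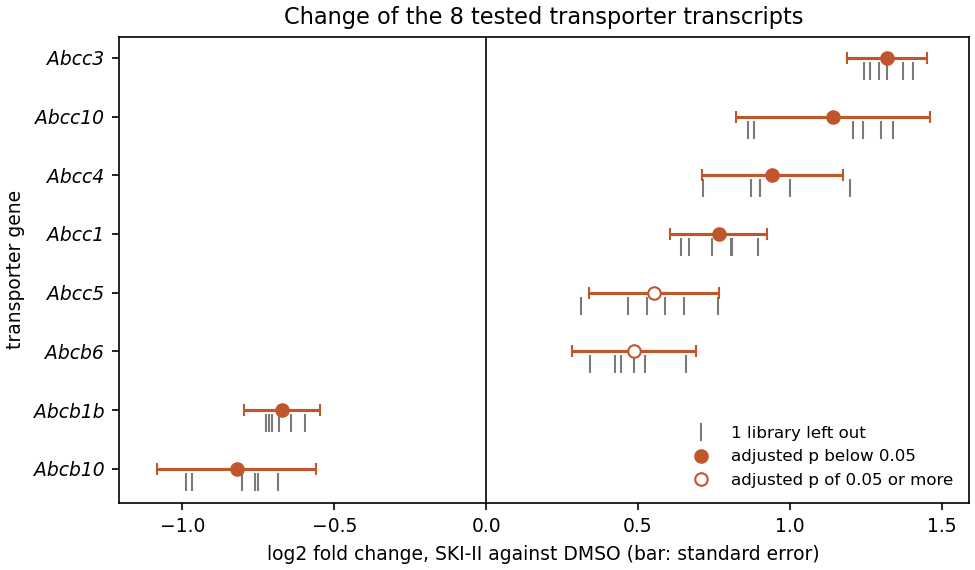
Log2 fold changes of the 8 tested transporters (circles, filled where the edgeR adjusted p was below 0.05) with their standard errors, and the values with each of the 6 libraries left out in turn (ticks). No tick crosses 0 for any of the 8, and Abcc3 at 1.32 and Abcb10 at -0.82 are the ends of the range.

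By the stricter threshold of the study's methods, which also asks for a log2 fold change above 1 or below -1, 2 transporters were higher (Abcc3 and Abcc10) and 0 lower, where 8.28% and 7.44% of all tested genes were called. With 1 library left out, 1 to 3 were higher and 0 lower: Abcc3 alone passed without DMSO 3 or SKI-II 1, and Abcc4 was added without DMSO 1 or SKI-II 3. Without regard to the test, every SKI-II library was above every DMSO library for 4 transporters and below for 2, against 24.8% and 25.5% of the genes tested. These were the called transporters.

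Levels between genes were compared as RPKM, counts scaled to exon length and library size. In DMSO, Abcc1 had the highest level at 31.4 ± 5.21 RPKM (SD, n = 3) and was followed by Abcc5 at 18.7 ± 5.78. Abcc4 at 10.6 ± 0.914 and Abcb1b at 10.6 ± 0.577 overlapped between libraries, and their order depends on which exon length is used. Abcc3 followed at 6.60 ± 0.788, Abcb6 at 2.09 ± 0.132, Abcb10 at 1.57 ± 0.281 and Abcc10 at 0.671 ± 0.241, with no overlap between any of these neighbours. Abcg2 at 0.0406 and Abcb1a at 0.0293 overlapped.

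With SKI-II, Abcc1 reached 53.4 ± 5.96 RPKM and stood above Abcc5 at 27.4 ± 3.44 in every library. Abcc5, Abcc4 at 20.5 ± 7.13 and Abcc3 at 16.5 ± 1.17 formed a group in which Abcc4 overlapped both neighbours, since it ranged from 12.6 to 26.4. Abcc3 passed from the fifth place to the fourth and Abcb1b, at 6.63 ± 0.680, from the fourth to the fifth. Abcc10 at 1.48 ± 0.428 and Abcb10 at 0.892 ± 0.184 also exchanged places, and their libraries did not overlap in either group.

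The summed level of the 10 transporters was 82.3 ± 8.78 RPKM in DMSO and 130 ± 5.07 in SKI-II (SD, n = 3 each), a ratio of 1.58, with no overlap between libraries. The share of Abcb1b in that sum was 15.1%, 12.3% and 11.4% in DMSO and 5.12% ± 0.667 in SKI-II, and that of Abcb10 was 1.94% ± 0.513 and 0.686% ± 0.130. The Abcc3 share was 8.13% ± 1.73 and 12.7% ± 0.425. Abcc1 held 38.0% ± 2.24 in DMSO and 41.2% ± 4.58 in SKI-II, shares that overlapped between libraries. These levels and shares depend on the exon length used: with coding length the sum was 204 RPKM in DMSO and 319 in SKI-II (ratio 1.56), and the Abcc3 share was 4.11% and 6.46%. With the longest transcript the sums were 149 and 230 RPKM (ratio 1.55), and the shares were 5.15% and 8.17% for Abcc3 and 1.08% and 0.389% for Abcb10. The shares of Abcb1b, Abcb10 and Abcc3 did not overlap between the groups with any of the 3 lengths.

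**Figure D3:**
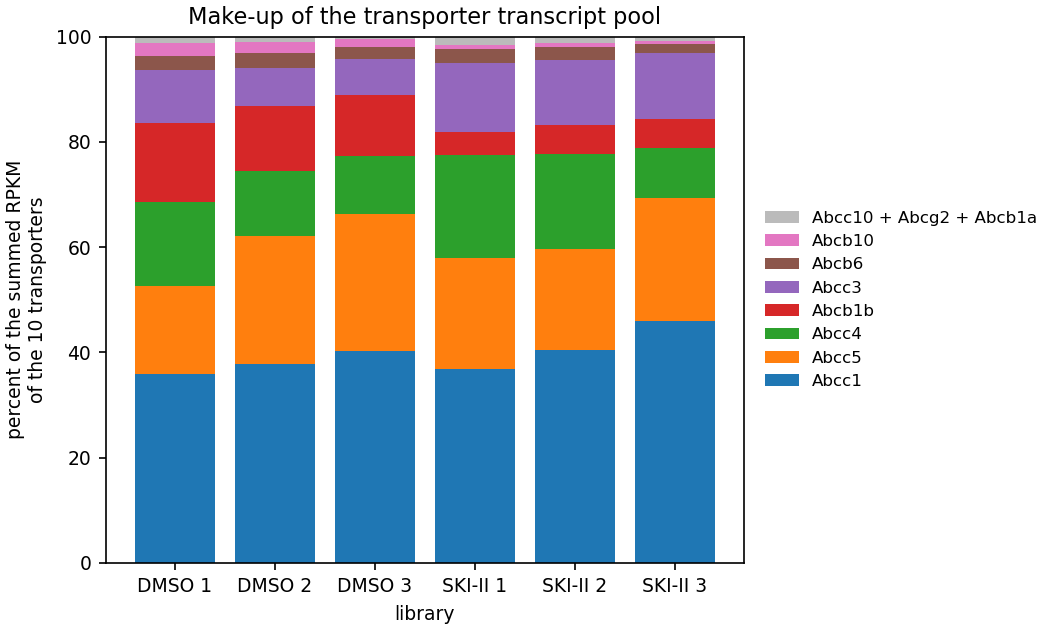
Share of the summed RPKM of the 10 transporters held by each gene, in percent, for each of the 6 libraries (stacked bars). The Abcb1b part ran from 11.4% to 15.1% in DMSO and from 4.36% to 5.59% in SKI-II, and Abcc1 was the largest part in all 6 libraries.

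The other ABC genes were given as 43 further members of the family, of which 23 could be tested. Of these, 6 were higher and 8 lower (5 lower without DMSO 1, SKI-II 2 or SKI-II 3), against 18.4% and 19.7% of all genes tested, with a median log2 fold change of -0.10. Across the whole family, all 6 tested genes of subfamily C had a positive log2 fold change and 5 were called higher, with Abcc5 the exception, whereas of 9 tested genes of subfamily B 1 was called higher and 4 lower. Without SKI-II 1, 2 of the 6 in subfamily C were called higher (Abcc1 and Abcc3) and all 6 still had a positive value, and without DMSO 1, DMSO 2, SKI-II 2 or SKI-II 3, 2 of the 9 in subfamily B were called lower. The sixth gene of subfamily C, Abcc2, an exporter of conjugates at the apical membrane of hepatocytes, was low, at 7, 6 and 7 counts with DMSO and 24, 22 and 20 with SKI-II (log2 fold change 1.57, SE 0.42, edgeR adjusted p = 0.0130, and 0.0543 without SKI-II 1). Abcc6 had a single count, in SKI-II 1, and 0 in the other libraries. Among the other ABC genes outside subfamily C, the largest rises called were Abca8b at 1.69 and Abca13 at 1.19. The Abca13 call was lost when any 1 of 5 of the libraries was left out. The largest falls among them were Abca2 at -1.49, Abca7 at -0.77 and, in subfamily B, Abcb4 at -0.77.

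**Figure D4:**
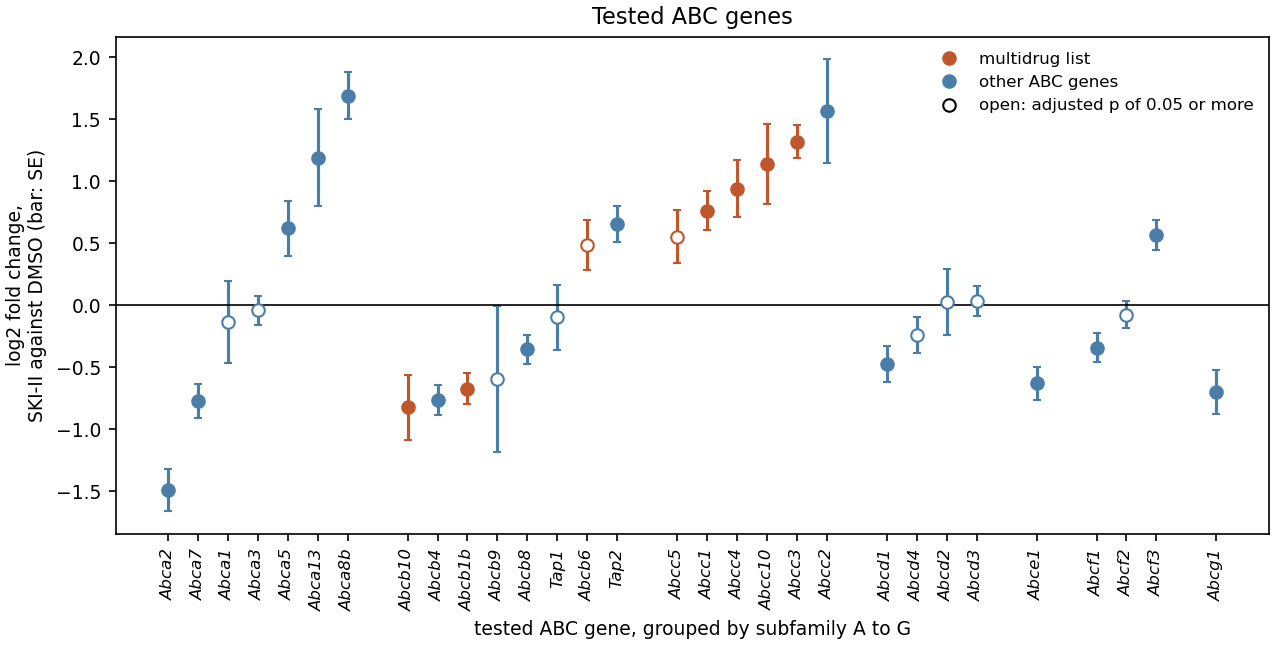
Log2 fold change with standard error of 30 of the 31 tested ABC genes, grouped by subfamily from A to G, with the 8 tested multidrug transporters in orange and 22 other genes in blue (open circles were not called). The 6 genes of subfamily C all lie above 0, while subfamily B runs from Abcb10 at -0.82 to Tap2 on the higher side.

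Abcb6 and Abcb10 were set beside 18 genes of heme synthesis and porphyrin or heme transport, of which 15 were tested. Of these, 3 were higher and 2 lower, near the shares over all genes tested (18.4% and 19.7%), with a median log2 fold change of 0.09. Slc48a1, a carrier of heme out of endolysosomes, rose (1.36, SE 0.16), as did Slc25a37, an importer of iron into mitochondria (0.72, SE 0.14), and Alas1, the first enzyme of heme synthesis (0.36, SE 0.12). Tmem14c, a mitochondrial porphyrin carrier, fell (-0.48, SE 0.17). The calls of Alas1 and Tmem14c were each lost when any 1 of 5 of the libraries was left out.

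Of 22 regulators of drug transporter genes, transcription factors with the Nrf2 inhibitor Keap1, 18 were tested, 0 were called higher and 5 lower by edgeR (3 lower without DMSO 2, SKI-II 1 or SKI-II 2), against 18.4% and 19.7% of all genes tested. DESeq2 and limma-voom also called 0 higher, and 1 gene had a higher level at an unadjusted p below 0.05. The transcript of Nfe2l2, which codes for Nrf2, had a log2 fold change of -0.01 (SE 0.12, edgeR adjusted p = 0.945), and that of its inhibitor Keap1 was -0.04 (SE 0.14, edgeR adjusted p = 0.825). Transcript levels do not show the amount or activity of these proteins. By ELISA, the study reported more Nrf2 protein with SKI-II in RAW264.7 cells, at an earlier time than these libraries. Ahr, the Ah receptor, gave 16, 21 and 14 counts with DMSO and 0 in all SKI-II libraries, which is at least 19.0-fold lower when 3 counts over the group are taken as the limit. Ybx1 (-0.91, SE 0.21) and Sp1 (-0.73, SE 0.15), which bind CCAAT or GC boxes, also fell. Nr1i2, the pregnane X receptor, had 0 counts in all 6 libraries, and Nr1i3 had 8 to 17 counts (log2 fold change -0.25, edgeR adjusted p = 0.680).

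All 10 macrophage markers were present in every library, with Fcgr1 (2.17) and Cd14 (1.41) higher and Lyz2 (-1.26), Itgam (-0.93), Adgre1 (-0.92) and Mrc1 (-1.61, a call lost when any 1 of 4 of the libraries was left out) lower. Their summed level was 142255 to 207289 normalized counts in DMSO and 91049 to 129061 in SKI-II, a fall carried by Lyz2. The other 9 markers summed to 51704 to 56715 in DMSO and 62645 to 67778 in SKI-II. Cd14 made the largest part of that rise, with means of 7668 in DMSO and 20424 in SKI-II. Fcgr1 and Ptprc also had higher means, whereas Adgre1, Cd68, Csf1r, Itgam, Spi1 and Mrc1 had lower ones. The part of these shifts in the transporter values was not tested. Of 20 markers of other cell types, 0 had enough counts to test and 10 were at 0 in all libraries. Their summed counts were 16 to 20 in DMSO and 32 to 43 in SKI-II.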

How the data were processed

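Poly(A)-selected RNA of 3 DMSO and 3 SKI-II samples of RAW264.7 was sequenced. The table used here holds raw read counts per Ensembl gene for the 6 libraries, as the authors deposited them. Their processing notes name Trimmomatic 0.36, STAR 2.5.2b, featureCounts of Subread 1.5.2 and DESeq2. Build, annotation release and strandedness were not given in the sources used. Without strandedness, reads of a gene and an antisense partner cannot be told apart. Symbols, positions and lengths come from GENCODE M21 (GRCm38), which named 49056 of 49315 identifiers.

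Counts were tested with edgeR 4.0.16 in R 4.3.3 (quasi-likelihood test, TMM scaling, expression filter with a minimum count of 10 and minimum total of 15, Benjamini-Hochberg adjustment over 12274 genes). Normalized counts were scaled to a library of 16042438. RPKM used the same library sizes and the union of exons. No p-value was computed for the summed level. Libraries of 1 group differed by more than sampling noise (chi-square per degree of freedom 15.4 to 58.1 over genes with at least 20 counts). On simulated counts of 12107 genes, 73% of genes changed by 1 on the log2 scale and 92% of those changed by 2 were recovered, with 5 false calls. Intervals and limits cover counting error only, as reads carry no molecular identifiers. The alternatives were DESeq2 1.42.0, limma-voom (limma 3.58.1), other scalings and filters, a prior count of 2, the replicate number as a block and leaving out each library. Figures were drawn with matplotlib 3.10.9.

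The transporters, the other gene lists and the motifs were chosen with earlier results of these data known. From each other list, up to 3 called genes with the largest positive and up to 3 with the most negative log2 fold change were named, with Nfe2l2, Keap1, Ahr, Nr1i2, Nr1i3, Abcb4, Abcc2 and Abcc6 named whatever their value. Some genes that this rule names are not reported or drawn here. Tap2 and Adgre1 were named after their values were seen.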

Additional observations from a re-analysis of the deposited data

How the results depend on the processing

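Abcc3, Abcc1 and Abcb1b kept an adjusted p below 0.05 under every alternative fit, and no log2 fold change of a tested transporter changed sign. Leaving out 1 library gave 2 to 5 transporters called higher and 1 to 2 lower; 2 were higher without SKI-II 1 and 1 was lower without DMSO 1, DMSO 2, SKI-II 2 or SKI-II 3. With a log2 fold change beyond 1 also asked for, 2 were higher and 0 lower.

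Same-numbered libraries deviated from their group means with correlations of 0.246, 0.00994 and 0.458, and differently numbered ones with -0.462 to 0.296. DMSO 1 correlated best with SKI-II 2 (0.296) and DMSO 2 with SKI-II 1 (0.0417), whereas DMSO 3 correlated best with SKI-II 3 (0.458). The labels do not give the numbers as pairs, and the main test did not use them. With the replicate number as a block, 5 transporters were called higher (Abcc5 added, adjusted p = 0.0215) and 2 lower, and calls over all genes went from 2255 higher and 2413 lower to 2765 and 2819. For the other lists the block gave 6 higher and 8 lower among ABC genes, 5 and 4 among SLC carriers, 4 and 2 among heme genes, and 0 and 5 among regulators of transporter genes.

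Leaving out 1 library gave 4 to 5 other ABC genes higher and 5 to 7 lower, 2 to 4 SLC carriers higher and 3 to 4 lower, 2 to 4 heme genes higher and 1 to 2 lower, and 3 to 5 regulators lower. With at least 10 counts asked for in every library, 3 SLC carriers were higher. The summed level differed by 7348 to 9364 normalized counts with 1 library left out. Abcb1a and Abcg2, with 22 counts each over the 6 libraries, had too few counts to be kept for the main test.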

Other observations

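Of 40 solute carriers (SLC) of drugs and organic ions, which import or exchange many substrates of the ABC exporters, 13 were tested, 5 were higher (2 without DMSO 2, 3 without SKI-II 2 or SKI-II 3) and 4 lower in SKI-II, against 18.4% and 19.7% of all genes tested, with a median log2 fold change of -0.15, also with Slc47a2 at its limit. Slc15a3, a lysosomal peptide and histidine carrier, was higher (log2 fold change 1.00, SE 0.14, edgeR adjusted p = 5.85e-04). Slc47a2, a proton-coupled exporter of organic cations, had 0 counts in all DMSO libraries and 10, 12 and 13 in SKI-II, which is at least 10.4-fold higher when 3 counts over the group are taken as the limit. Slc22a18 gave 6, 4 and 25 counts with DMSO and 26, 70 and 97 with SKI-II (log2 fold change 2.26, SE 0.60, edgeR adjusted p = 0.0135, and 0.0532 without DMSO 2), and its log2 fold change was 3.39 without DMSO 3. The nucleoside carrier Slc29a1 (-1.15, SE 0.24), the reduced folate carrier Slc19a1 (-1.12, SE 0.17) and Slc15a4 (-0.69, SE 0.17) fell.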
